A study of Mus musculus with 4 samples.

Results

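The genes described here are 39 mouse genes of the NRF2 and glutathione pathway, taken by symbol from a table of 56748 gene IDs, and all 39 were found. They were grouped by role into 2 regulators, 5 genes of glutathione synthesis and recycling, 3 of the thioredoxin system, 5 of NADPH supply, 15 of conjugation and export, 8 of quinone, carbonyl, epoxide and heme metabolism, and the growth inhibitor gene Osgin1. NRF2, encoded by Nfe2l2, is a transcription factor that KEAP1 holds in the cytoplasm and passes to degradation. Oxidants and electrophiles modify cysteines of KEAP1, and NRF2 then accumulates and binds antioxidant response elements in genes for glutathione synthesis, conjugation, NADPH supply, and quinone and heme breakdown. In fibroblasts these enzymes set much of the capacity to remove peroxides and reactive aldehydes.

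Bulk RNA was sequenced from cells labelled as prostate fibroblasts, dissociated from male mice (genotype CB57BL/6 in the labels) and cultured with serum, in 1 library for each of BuOE with radiation, PBS with radiation, BuOE and PBS (phosphate-buffered saline). Per the labels the mice were 8 to 10 weeks old. Irradiated animals were given 5 daily pelvic doses of 7.5 Gy, 37.5 Gy in total, at 1.2 Gy per minute behind lead shielding. The title of the series names the agent BMX-001, a superoxide dismutase mimic built on a manganese porphyrin, and BuOE forms part of that agent's chemical name. The labels give neither its dose and timing nor whether animals or cultures received it, nor the number of animals per library, and they leave the interval between irradiation and culture unstated. With 1 library per condition no difference between 2 conditions has a replicate check or a p-value. Each comparison is between 2 libraries, and the range after a log2 ratio is its 95% counting interval (exact binomial), which covers counting error only.

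Deposited counts summed to between 24996835 and 35915448 reads per library. All 7 fibroblast markers (Col1a1, Col1a2, Pdgfra, Lum, Dcn, Thy1 and Vim) were detected, and they summed to 5586 CPM (the read count scaled to library depth, with factors from the trimmed mean of M-values) in BuOE with radiation, 8216 in PBS with radiation, 5832 in BuOE and 7134 in PBS. All 7 epithelial markers were detected too, with sums of 4339, 3149, 4564 and 3925 CPM in that order. For 7 adipocyte markers the sums were 225, 196, 178 and 596 CPM, and Adipoq was at 0 in at least 1 library. Neuronal markers reached 82.8, 216, 768 and 103 CPM. In bulk RNA, fewer cells of a type and less RNA per cell cannot be told apart.

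The 4 libraries differed in which of them held the highest level of a pathway gene. Of the 39 genes, 38 had a mean of at least 1 CPM and are counted below, and Ugt1a6a, a glucuronosyltransferase gene, did not, with 13, 18, 21 and 29 reads in BuOE with radiation, PBS with radiation, BuOE and PBS. The PBS library was the highest of the 4 for 20 of the 38 genes (52.6%), against 32.2% of all 14365 genes tested. Gsta1 is among these 20 and passed the filter only through PBS, with a mean of 0.918 CPM in the other libraries. BuOE with radiation was the highest for 13 genes, or 34.2%, against 28.4% of all genes. BuOE was the highest for 3 genes (7.89%, against 21.9%), and PBS with radiation for 2, Me1 and Mgst2 (5.26%, against 17.5%). The genes highest in PBS included Nqo1, Srxn1, Txnrd1, Gclc, Gclm, Slc7a11, G6pdx, Pgd and Gsta4. Those highest in BuOE with radiation included Hmox1, Blvrb, Ephx1, Osgin1, Taldo1, Abcc1, Esd and Akr1b8. The sums of adipocyte markers (596 CPM) and of prostate secretory markers (786 CPM) were also highest in PBS, unlike those of the other marker sets. Their part in these levels was not tested.

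**Figure D1:**
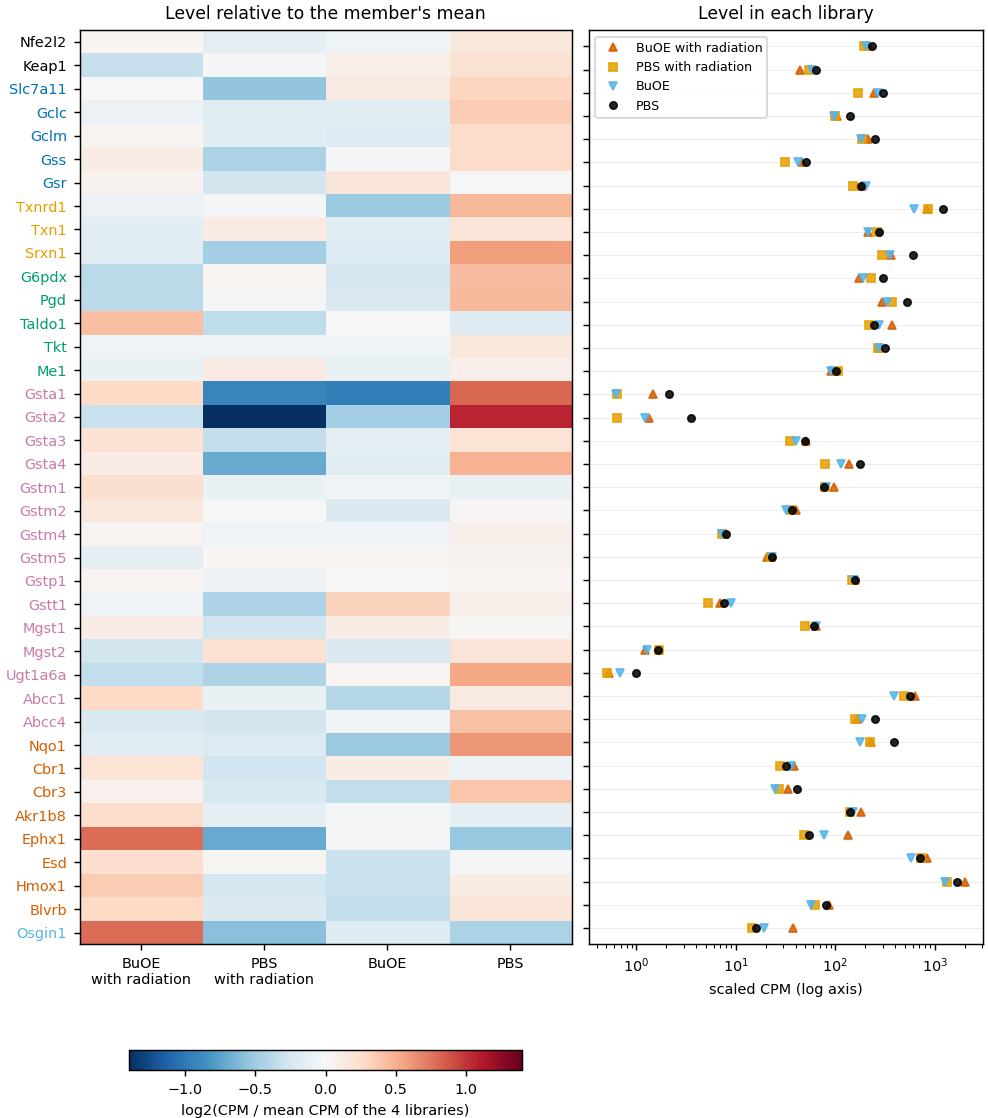
Levels of the 39 genes in the 4 libraries, names coloured by role. Left, log2 of scaled CPM over the gene's mean of the 4 libraries; right, scaled CPM on a log axis, 1 point per library. Txnrd1, Srxn1 and Nqo1 were highest in PBS, whereas Ephx1 and Osgin1 were highest in BuOE with radiation.

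Compared per kilobase of merged exon, the levels of the 39 genes spanned a wide range. The highest mean over the 4 libraries was 896 CPM per kb for Hmox1, followed by 231 for Txn1, 213 for Esd, 165 for Nqo1, 144 for Srxn1, 128 for Taldo1 and 125 for Txnrd1. Among the glutathione transferases Gsta4 (101 CPM per kb) and Gstp1 (99.6) led, and Gsta2 (1.44), Gsta1 (1.28) and Mgst2 (0.398) were far lower. Exon lengths came from an annotation of GRCm38, not of the build used for counting.

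Promoter sequence is shown as a description, since the genes were listed as members of the NRF2 pathway. The core of the antioxidant response element was searched as TGACNNNGC on both strands in the 250 bases upstream of the start sites that RefSeq (GRCm38.p6) gives. Entries were matched for 34 of the 39 genes, and Gclc, Gsr, Gsta4, Abcc1 and Hmox1 were the others. A match lay upstream of 8 of the 34 genes (23.5%), against 11.5% of 27025 genes with entries. Among members with entries, 8 were at least 1.5-fold lower with radiation in the PBS arm, and 1 of these had a match. The part of the motif in the ratios below was not tested. TGACTCA, the AP-1 motif, lay in the same window of 5 of the 34 genes (14.7%), against 5.16% of all genes, and none of the TGACNNNGC matches in members held it. The whole stretch is printed for Abcc4, the only gene with a match among those at least 1.5-fold lower or higher in an irradiated library than in its unirradiated counterpart, at chr14:118706220-118706469 on the minus strand. For Nfe2l2 (chr2:75704865-75704913, minus strand), Gclm (chr3:122245393-122245461, plus strand), Txnrd1 (chr10:82859084-82859152, plus strand) and Gsta3 (chr1:21240434-21240502, plus strand) the match is printed with up to 30 bases on each side. These 4 were chosen after their values were seen. Gstm5, Mgst1, G6pdx and another start site of Abcc4 (match within chr14:118676932-118676984, minus strand) also had a match and are not printed. The match is in capitals, written as it reads on the strand of the gene, and where it reads GC first it lies on the opposite strand.
Abcc4: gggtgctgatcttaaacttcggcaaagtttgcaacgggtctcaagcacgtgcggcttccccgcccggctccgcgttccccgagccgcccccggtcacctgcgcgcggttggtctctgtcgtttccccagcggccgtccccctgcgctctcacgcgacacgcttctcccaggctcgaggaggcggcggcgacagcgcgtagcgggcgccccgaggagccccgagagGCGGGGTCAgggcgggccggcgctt
Nfe2l2: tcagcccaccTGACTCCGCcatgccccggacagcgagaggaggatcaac
Gclm: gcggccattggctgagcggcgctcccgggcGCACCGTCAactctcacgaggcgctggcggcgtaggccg
Txnrd1: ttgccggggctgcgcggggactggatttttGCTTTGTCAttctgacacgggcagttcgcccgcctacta
Gsta3: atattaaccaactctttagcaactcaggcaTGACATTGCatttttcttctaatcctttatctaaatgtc
A match is a description of these letters and not a bound site.

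The first comparison set PBS with radiation against PBS, which asks what irradiation of the animal left in cells without the compound. Most pathway genes were lower in the irradiated library. Of 38 genes, 34 had a log2 ratio below 0 (89.5%), against 49.6% of all genes tested, and their median was -0.28 against 0.00 over all genes. At least 1.5-fold lower were 9 genes (23.7%, against 3.56% of all genes), namely Slc7a11, Gss, Srxn1, Gsta1, Gsta2, Gsta4, Abcc4, Nqo1 and Cbr3. None was at least 1.5-fold higher, against 10.9% of all genes, and the highest ratio of all was 0.05. At least 2-fold lower were Srxn1, Gsta1, Gsta2 and Gsta4, which is 10.5% of the 38, against 1.02% of all genes, and none was 2-fold higher (5.62% of all genes). Gsta1 and Gsta2 share much of their sequence, and Gsta1 passed the filter only through the PBS library, where it was high (a mean of 0.918 CPM in the other libraries). Without these 2 genes, 7 of 36 were at least 1.5-fold lower and 2 of 36 at least 2-fold lower, an alternative added after the data were seen. Adipocyte markers, 7 of 7 below 0 with a median of -3.09, were lower with them, as were macrophage markers, 7 of 7 below 0 with a median of -0.20, and epithelial markers, 5 of 7 below 0 with a median of -0.48. Neuronal (3.63), Schwann cell (1.93), prostate secretory (1.57), smooth muscle and pericyte (1.21), endothelial (0.72) and fibroblast (0.44) markers had medians above 0. The sum of the prostate secretory markers was nonetheless lower, at 560 CPM in PBS with radiation against 786 in PBS. The part of any of them in the result was not tested.

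The second comparison set BuOE with radiation against BuOE. Here most pathway genes lay at or above the unirradiated library. Of 38 genes, 10 had a ratio below 0 (26.3%), against 53.8% of all genes, and the median was 0.11 against -0.03 over all genes. The 28 to 10 split in favour of higher became 19 to 19 with scaling by library size alone, which moved the median of all genes to -0.14, and the distance between the 2 medians, 0.15, hardly changed. At least 1.5-fold higher were Gsta1, Abcc1, Ephx1, Hmox1, Blvrb and Osgin1, 6 genes or 15.8%, against 8.3% of all genes. With library size alone 3 genes passed, and the share of all genes under that scaling was not counted. No gene was at least 1.5-fold lower, against 11.4% of all genes. At the 2-fold limit Gsta1 alone was higher (2.63%, against 2.27% of all genes), and none was lower (4.94% of all genes). The 7 adipocyte markers were all above 0 in this comparison, with a median of 1.17. Macrophage markers had a median of 0.21, and neuronal markers, 7 of 7 below 0, one of -4.32. Schwann cell markers had a median of -0.83 with 7 of 7 below 0, and epithelial markers one of -0.28 with 5 of 7 below 0. Medians were -0.41 for smooth muscle and pericyte, -0.04 for fibroblast, 0.03 for endothelial and 0.44 for prostate secretory markers. The prostate secretory sum was nonetheless lower, at 211 CPM in BuOE with radiation against 550 in BuOE. The part of these markers was not tested. Without Gsta1 and Gsta2, 5 of 36 genes passed the 1.5-fold limit upwards and 0 the 2-fold limit.

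**Figure D2:**
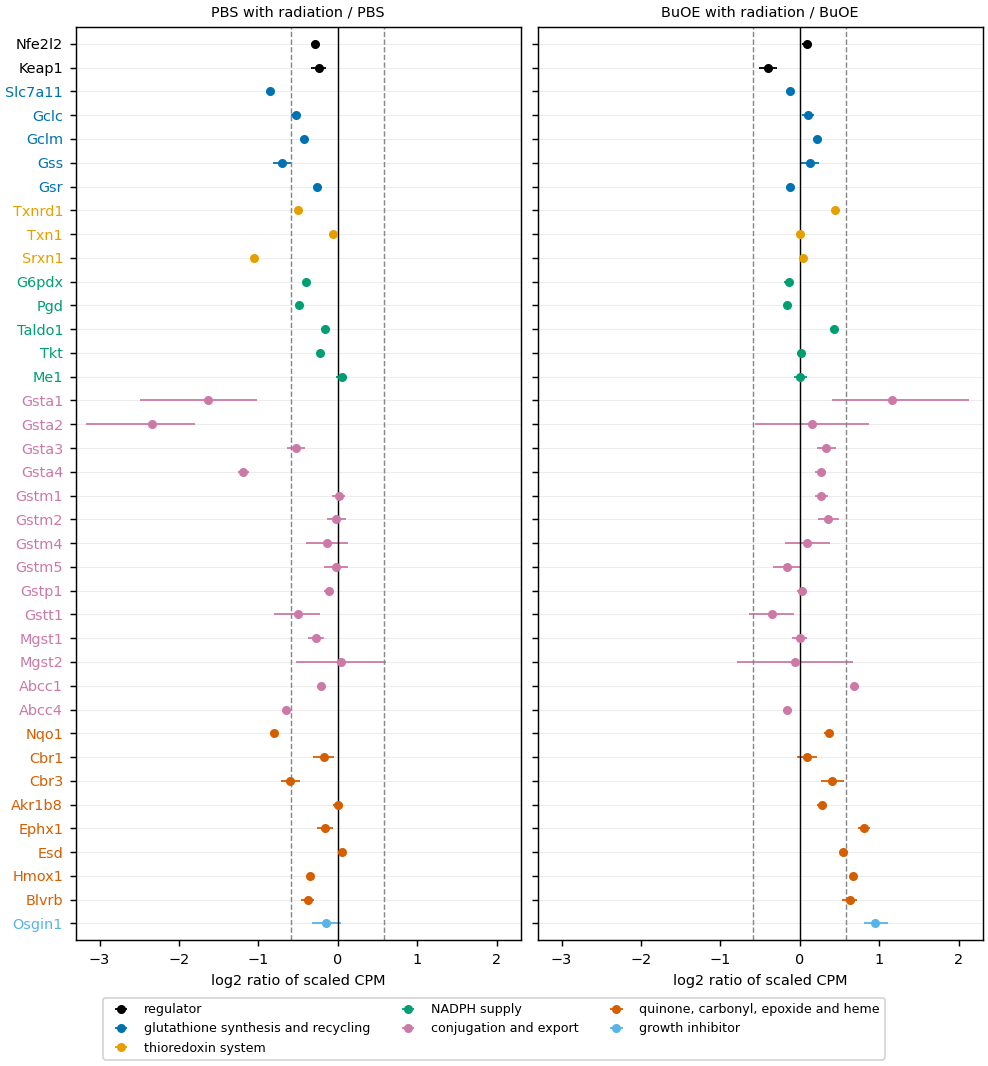
Log2 ratio of scaled CPM of the 38 genes tested, PBS with radiation over PBS on the left and BuOE with radiation over BuOE on the right. Bars are 95% counting intervals, colours are roles, and dashed lines mark 1.5-fold. Of 38 points, 34 lie below 0 on the left and 10 on the right.

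The third comparison, BuOE against PBS without radiation, shares the PBS library with the first comparison and the BuOE library with the second, where it is the denominator, and is independent of neither. Pathway genes were mostly lower in the BuOE library, where 29 of 38 had a ratio below 0 (76.3%, against 51.2% of all genes) and the median was -0.28 against -0.01. At least 1.5-fold lower were Txnrd1, Srxn1, G6pdx, Pgd, Gsta1, Gsta2, Gsta4, Nqo1 and Cbr3, which is 23.7% against 10.6% of all genes. Of these, Gsta1, Gsta2 and Nqo1 were at least 2-fold lower (7.89%, against 4.23% of all genes). None was 1.5-fold or 2-fold higher, against 16% and 8.72% of all genes. With library size alone, 6 genes were at least 1.5-fold lower and 1 higher. That scaling moved the median of all genes to 0.08, and shares of all genes were not counted under it. Without Gsta1 and Gsta2, 7 of 36 were at least 1.5-fold lower and 1, Nqo1, at least 2-fold lower. All 7 adipocyte markers were below 0 here too, with a median of -2.76. All 7 neuronal markers were above 0, with a median of 5.45. Schwann cell (2.62), smooth muscle and pericyte (1.70), prostate secretory (1.44), endothelial (0.44), epithelial (0.41) and macrophage (0.39) markers had medians above 0. The sum of the prostate secretory markers was nonetheless lower, at 550 CPM in BuOE against 786 in PBS. Fibroblast markers had a median of -0.20 with 5 of 7 below 0. The part of these markers was not tested.

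The last comparison, BuOE with radiation against PBS with radiation, concerns the compound in irradiated animals or their cells. Pathway genes were mostly higher in the BuOE library. A ratio below 0 was found for 8 of 38 genes (21.1%, against 56.2% of all genes), and the median was 0.30 against -0.07. At least 1.5-fold higher were Taldo1, Gsta1, Gsta2, Gsta4, Ephx1, Hmox1 and Osgin1 (18.4%, against 11% of all genes). The 2-fold limit left Gsta1, Gsta2, Ephx1 and Osgin1 (10.5%, against 3.81%). Without Gsta1 and Gsta2, 5 of 36 genes passed the 1.5-fold and 2 the 2-fold limit. None was lower by 1.5-fold or 2-fold, against 14.6% and 5.92% of all genes. With upper-quartile scaling 12 genes were at least 1.5-fold higher, and the share of all genes was not counted. That scaling moved the median of all genes to 0.06, and its distance to the members' median stayed at 0.37. Epithelial markers had a median of 0.61 with 0 of 7 below 0, and adipocyte markers one of 0.85 with 1 of 7 below 0. Macrophage markers had a median of 0.74 with 0 of 7 below 0. Prostate secretory markers had one of 1.07 with 2 of 7 below 0. Their sum was nonetheless lower, at 211 CPM in BuOE with radiation against 560 in PBS with radiation. Neuronal markers, 7 of 7 below 0, had a median of -2.43. Fibroblast markers had a median of -0.47 with 5 of 7 below 0, and endothelial markers one of -0.27 with 6 of 7 below 0. Medians were -0.33 for Schwann cell markers and 0.32 for smooth muscle and pericyte markers. The part of these markers was not tested. The comparison shares a library with each of the first 2.

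**Figure D3:**
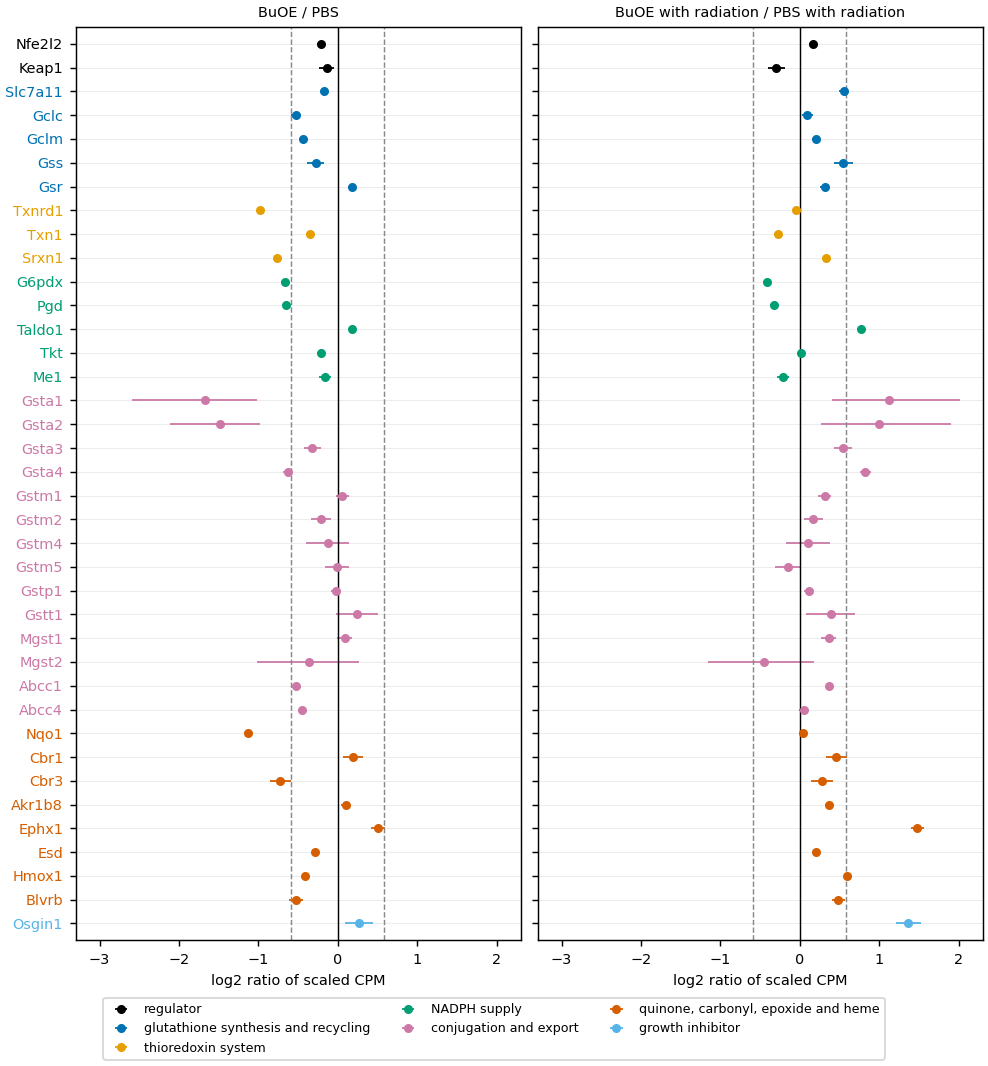
Log2 ratio of scaled CPM of the same 38 genes, BuOE over PBS on the left and BuOE with radiation over PBS with radiation on the right, with 95% counting intervals and dashed lines at 1.5-fold. Nqo1, Txnrd1 and Srxn1 lie below 0 on the left, and Ephx1 (1.48) and Osgin1 (1.36) lie highest on the right.

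The radiation ratio in the BuOE arm minus that in the PBS arm uses all 4 libraries, has no test, and equals the BuOE ratio after radiation minus that without it. It was above 0 for 34 of 38 genes, against 6757 of all 14365 genes tested. The median was 0.49 against -0.03 over all genes. At least 1.5-fold higher were 18 genes (47.4%, against 8.23% of all genes), and 0 were at least 1.5-fold lower, against 15.6%. At the 2-fold limit 9 genes were higher (23.7%, against 2.7% of all genes) and 0 lower (8.76%), and without Gsta1 and Gsta2 7 of 36 were higher. For 15 genes the ratio was below 0 in the PBS arm and above 0 in the BuOE arm with both counting intervals clear of 0, which is 39.5% of the 38, against 6.47% of all genes. No member had the opposite pair, against 9.26% of all genes. A difference of at least 2-fold as well was found for 6 of the 15 (15.8% of the 38, against 1.09% of all genes), and in the opposite direction for 0 (5.21% of all genes). Intervals are narrower for abundant genes, so these shares depend on level. Gsta1, which passed the filter only through PBS, is among the 15 and among the 6. The signs of 11 genes in the BuOE arm differed between scalings, Nfe2l2 and Gclc of these 15 among them. Gss, also of the 15, kept its sign there, but its ratio of 0.13 (0.01 to 0.24) became 0.01 with library size alone. The 15 were not recounted under other scalings. Across the 38 genes the ratios of the 2 arms, which share no library, had a Pearson correlation of -0.12 and a Spearman correlation of -0.01. Over all genes the correlations were -0.24 and 0.13. The points share depth and scaling.

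**Figure D4:**
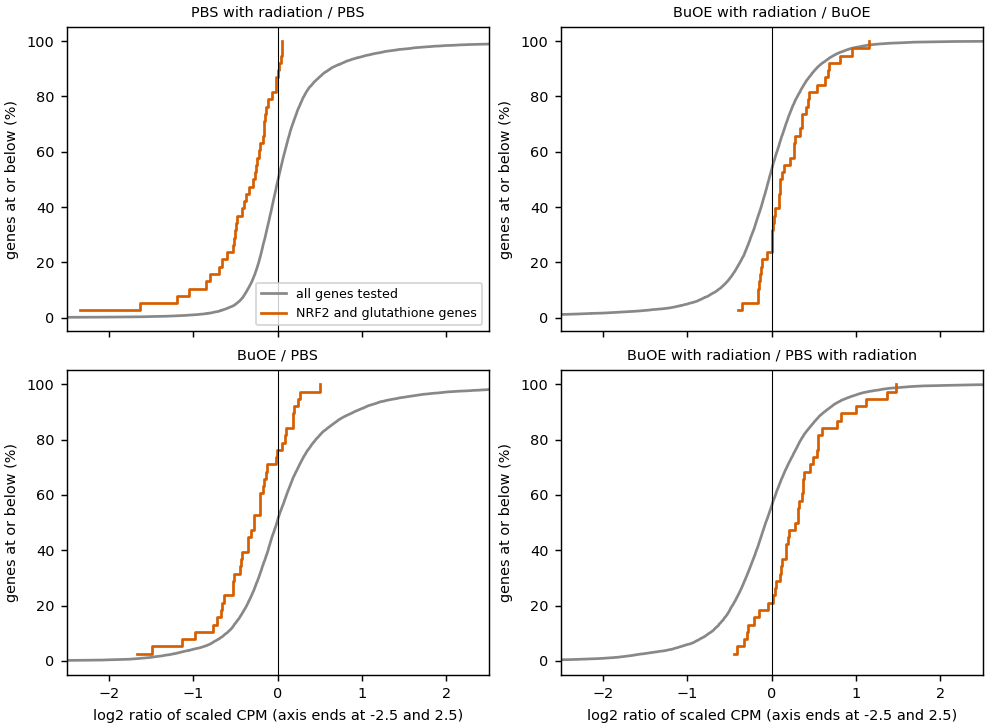
Share of genes (%) at or below each log2 ratio of scaled CPM, for the 38 pathway genes and all 14365 genes tested, in 4 comparisons. The curve of the pathway genes lies left of that of all genes for PBS with radiation over PBS (median -0.28) and right of it for BuOE with radiation over PBS with radiation (median 0.30).

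The regulators themselves varied less than several of their targets. Nfe2l2 stood at 218 CPM in BuOE with radiation, 194 in PBS with radiation, 205 in BuOE and 237 in PBS. Its log2 ratio was -0.29 (-0.34 to -0.25) with radiation in the PBS arm and 0.09 (0.03 to 0.14) in the BuOE arm, the second of which changed sign with scaling. Keap1, which encodes the repressor of NRF2, had 44.5, 54.7, 58.7 and 64.7 CPM in the same order. Its ratio was -0.24 (-0.33 to -0.15) in the PBS arm and -0.40 (-0.51 to -0.29) in the BuOE arm, so that it was lower in the irradiated library of both. NRF2 is regulated largely as a protein, which these data do not measure.

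All 5 genes of glutathione synthesis and recycling were lower in PBS with radiation than in PBS, with a median of -0.52, and 3 of 5 were above 0 in the BuOE arm, of which Gclc changed sign between scalings. Slc7a11, the transporter that brings in cystine for glutathione, stood at 246 CPM in BuOE with radiation, 168 in PBS with radiation, 268 in BuOE and 303 in PBS. PBS with radiation was the low library, and the ratio was -0.85 (-0.90 to -0.80) in the PBS arm and -0.13 (-0.18 to -0.08) in the BuOE arm. Gclc, the catalytic subunit of the rate-limiting ligase, had 105, 98.5, 98.3 and 142 CPM in the same order. The other libraries lay close together and PBS alone was high, which gave -0.52 (-0.59 to -0.46) in the PBS arm and -0.53 (-0.60 to -0.46) for BuOE against PBS. Gclm, the modifier subunit of that ligase, showed the same order of values, with 214, 186, 184 and 250 CPM. Gss, glutathione synthetase, stood at 46.1, 31.5, 42.3 and 51.3 CPM, with a ratio of -0.70 (-0.81 to -0.59) in the PBS arm, and 15.4% of its exon bases lie in exons of other genes. Gsr, which reduces oxidised glutathione, was highest in BuOE (204 CPM) and stood at 187 in BuOE with radiation, 151 in PBS with radiation and 180 in PBS.

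The thioredoxin system held some of the widest spreads. Txnrd1, thioredoxin reductase of the cytosol, stood at 838 CPM in BuOE with radiation, 868 in PBS with radiation, 619 in BuOE and 1225 in PBS. BuOE was lowest and PBS highest, a difference of 1.98-fold. Its ratio was -0.50 (-0.52 to -0.48) with radiation in the PBS arm, 0.44 (0.41 to 0.47) in the BuOE arm and -0.99 (-1.01 to -0.96) for BuOE against PBS. Srxn1, sulfiredoxin, which restores overoxidised peroxiredoxins, had 367, 293, 357 and 610 CPM in the same order. It was at least 2-fold lower in PBS with radiation than in PBS (-1.06, -1.09 to -1.02), and only 0.91% of all genes had a lower ratio there. In the BuOE arm its ratio was 0.04, with an interval of about 0 to 0.08 that held 0, and its sign differed between scalings. Txn1, thioredoxin itself, stood at 216 CPM in BuOE with radiation, 262 in PBS with radiation, 216 in BuOE and 275 in PBS, and its ratio in the PBS arm was -0.07 (-0.11 to -0.02).

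Within NADPH supply, 4 of 5 genes were below 0 with radiation in the PBS arm and 4 of 5 with BuOE against PBS. G6pdx, glucose-6-phosphate dehydrogenase, stood at 172 CPM in BuOE with radiation, 230 in PBS with radiation, 190 in BuOE and 303 in PBS. Pgd, the next dehydrogenase of the oxidative branch, had 298, 375, 334 and 526 CPM. Both were lower in each BuOE library than in the PBS library with the same radiation status, with -0.67 (-0.72 to -0.62) and -0.66 (-0.69 to -0.62) without radiation, and -0.41 (-0.47 to -0.36) and -0.33 (-0.37 to -0.29) after it. Taldo1, transaldolase of the non-oxidative branch, had 372, 218, 276 and 244 CPM, and its ratio after radiation was 0.77 (0.73 to 0.82). Tkt, transketolase, had 275.5, 272.5, 273.7 and 317.7 CPM, with PBS alone apart. Me1, malic enzyme, varied little, with 91.4, 106, 90.9 and 102 CPM. Of the 50-base stretches of G6pdx 16.9%, and of Me1 28.3%, also occur in transcripts of other genes or gene models.

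Among the 15 genes of conjugation and export, the alpha class transferases and the exporters differed between libraries more than the mu class. Gsta4, which conjugates the lipid peroxidation product hydroxynonenal, stood at 138 CPM in BuOE with radiation, 78.2 in PBS with radiation, 115 in BuOE and 179 in PBS. PBS with radiation was the low library. The ratio was -1.19 (-1.26 to -1.13) in the PBS arm, 0.26 (0.20 to 0.33) in the BuOE arm and 0.82 (0.75 to 0.90) for BuOE with radiation against PBS with radiation. No 50-base stretch of Gsta4 was found in another gene. Gsta3, another alpha class enzyme, had 50.7, 34.9, 40.2 and 50.3 CPM, with ratios of -0.53 (-0.64 to -0.42) in the PBS arm and 0.33 (0.22 to 0.45) in the BuOE arm.

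Gsta1 and Gsta2 were rare and cannot be separated with confidence. Gsta1 had 36 reads in BuOE with radiation, 23 in PBS with radiation, 19 in BuOE and 63 in PBS, and Gsta2 had 33, 23, 37 and 104. PBS was the high library for both, with ratios of -1.63 (-2.49 to -1.02) and -2.34 (-3.18 to -1.79) in the PBS arm. Of the 50-base stretches of Gsta1, 90.5% occur in transcripts of other genes, and of Gsta2 49.8%, chiefly each other and the gene models Gm3776 and Gm10639. Their values are therefore uncertain.

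The mu class genes Gstm1, Gstm2, Gstm4 and Gstm5 had ratios between -0.14 and 0.01 in the PBS arm, and each of the 4 counting intervals held 0. The sign of Gstm1 there differed between scalings. Gstm1 stood at 97.3 CPM in BuOE with radiation, 78.3 in PBS with radiation, 80.8 in BuOE and 77.9 in PBS, and its ratio in the BuOE arm was 0.27 (0.19 to 0.35). In the same order of libraries Gstm2 had 40.7, 36.3, 31.7 and 36.8 CPM, Gstm4 had 7.82, 7.27, 7.32 and 8.00 CPM, and Gstm5 had 20.5, 22.8, 23.0 and 23.2 CPM. Gstp1, the pi class enzyme, was nearly level at 158, 146, 155 and 158 CPM, and 33.7% of its 50-base stretches are shared with Gstp2 or a pseudogene. Gstt1, the theta class enzyme, had 6.955, 5.305, 8.905 and 7.561 CPM and was lower in the irradiated library of both arms, with ratios of -0.51 (-0.80 to -0.22) and -0.35 (-0.64 to -0.07). Mgst1, a membrane-bound transferase, had 64.24, 49.99, 64.32 and 60.55 CPM, lowest in PBS with radiation. Mgst2 was near the filter, with 30, 61, 39 and 49 reads.

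Of the exporters, Abcc1, which carries glutathione conjugates out of the cell, stood at 632 CPM in BuOE with radiation, 490 in PBS with radiation, 394 in BuOE and 568 in PBS. BuOE with radiation was the high library, with a ratio of 0.68 (0.65 to 0.72) in the BuOE arm and -0.21 (-0.25 to -0.18) in the PBS arm. Abcc4, an exporter of cyclic nucleotides and conjugates whose upstream sequence is printed above, had 166, 160, 185 and 252 CPM. Its ratio was -0.66 (-0.71 to -0.61) in the PBS arm and -0.16 (-0.22 to -0.10) in the BuOE arm.

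Genes of quinone, carbonyl, epoxide and heme metabolism were above 0 in the BuOE arm, 8 of 8 with a median of 0.47 (the sign of Cbr1 differed between scalings), and 7 of 8 were below 0 in the PBS arm with a median of -0.26. Nqo1, the quinone reductase often used as a readout of NRF2, stood at 229 CPM in BuOE with radiation, 223 in PBS with radiation, 178 in BuOE and 391 in PBS. PBS stood apart as the high library, 2.19-fold above BuOE. The ratio was -0.81 (-0.85 to -0.77) in the PBS arm, lower than for all but 1.65% of genes, 0.36 (0.31 to 0.41) in the BuOE arm and -1.13 (-1.18 to -1.09) for BuOE against PBS. After radiation the ratio of the BuOE to the PBS library was 0.04 (-0.01 to 0.09). Cbr3, a carbonyl reductase, followed a like order with 33.2, 27.3, 25.0 and 41.4 CPM, whereas its relative Cbr1 had 38.7, 28.1, 36.3 and 31.8 CPM.

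Hmox1, heme oxygenase, had the highest level per kilobase of the 39 genes, and stood at 2005 CPM in BuOE with radiation, 1326 in PBS with radiation, 1261 in BuOE and 1686 in PBS. Its ratios were -0.35 (-0.36 to -0.33) in the PBS arm, 0.67 (0.65 to 0.69) in the BuOE arm and 0.60 (0.58 to 0.62) for BuOE with radiation against PBS with radiation. Blvrb, which encodes a biliverdin reductase, showed the same order of libraries, with 87.6, 62.6, 56.7 and 81.5 CPM. The ratio of Blvrb was -0.38 (-0.46 to -0.30) in the PBS arm and 0.63 (0.54 to 0.72) in the BuOE arm.

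Ephx1, microsomal epoxide hydrolase, departed from that order. It stood at 134 CPM in BuOE with radiation, 48.2 in PBS with radiation, 76.7 in BuOE and 54.1 in PBS, so that both BuOE libraries were above both PBS libraries. The ratio of BuOE with radiation to PBS with radiation was 1.48 (1.39 to 1.56), above that of 98.8% of all genes. Osgin1, a growth inhibitor induced by oxidative stress, shared this order with 37.5, 14.5, 19.4 and 16.1 CPM, and a ratio of 1.36 (1.21 to 1.52) after radiation. Esd, which hydrolyses S-formylglutathione, had 844, 736, 581 and 710 CPM and a ratio of 0.54 (0.51 to 0.57) in the BuOE arm. Akr1b8, an aldo-keto reductase, had 182, 141, 151 and 141 CPM.

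Other genes of the pathway were described by 6 further lists of 104 genes, of which 93 had a mean of at least 1 CPM. Their median ratio was -0.03 with radiation in the PBS arm and 0.02 in the BuOE arm, near those of all genes. At least 1.5-fold higher and lower were 8 and 7 of the 93 in the PBS arm, against 10.9% and 3.56% of all genes. In the BuOE arm 10 and 8 of the 93 were, against 8.3% and 11.4% of all genes. The same shares of all genes apply to the 1.5-fold counts per list below. The genes named below as highest or lowest of a list are those with a mean of at least 10 CPM.

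Partners and antagonists of NRF2 had a median of -0.01 in the PBS arm, with 0 of 12 higher or lower by 1.5-fold. In the BuOE arm, the small MAF protein gene Maff was highest, at 153 CPM in BuOE with radiation against 71.5 in BuOE (1.10), and Mafk had 91.6 against 58.1 CPM (0.66). Against PBS with radiation, BuOE with radiation was at least 2-fold higher for both, at 1.18 for Maff and 1.09 for Mafk. The lowest were Mafg in the PBS arm (-0.11) and Crebbp in the BuOE arm (-0.18), and Nfe2l3 was the highest of the PBS arm (0.46).

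The 25 other NRF2 target genes were split, with 2 at least 1.5-fold higher and 4 lower in the PBS arm, and 2 and 2 in the BuOE arm. Gpx2, an epithelial glutathione peroxidase, was the lowest in both arms, at 53.1 CPM in PBS with radiation against 93.6 in PBS (-0.82) and 41.2 CPM in BuOE with radiation against 113 in BuOE (-1.45). Aldh1a1, a retinal dehydrogenase, was the highest in the PBS arm (0.78), and Prdx6, a peroxiredoxin, in the BuOE arm (0.58). In BuOE against PBS without radiation, 4 of the 25 were at least 2-fold higher and 2 lower, against 8.72% and 4.23% of all genes. Abcc3 (1.45), Aldh3a1 (1.60), Trp53inp1 (1.10) and Akr1b7 (1.69) were higher, and Adh7 (-1.245) and Akr1c14 (-2.02) lower. Akr1b7, Adh7 and Akr1c14 were at low levels, with means of 8.95, 5.47 and 1.82 CPM. After radiation Trp53inp1 alone was at least 2-fold higher (1.19), and 0 were lower. Prdx1, an abundant peroxiredoxin chosen after its values were seen, stood at 1103 CPM in BuOE with radiation, 977 in PBS with radiation, 941 in BuOE and 1658 in PBS, with PBS alone high as for Nqo1.

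Of 12 other glutathione transferase genes, 3 were at least 1.5-fold higher and 1 lower in the PBS arm, and 2 and 3 in the BuOE arm. Gsto1, an omega class enzyme, had 390 CPM in BuOE with radiation, 267 in PBS with radiation, 228 in BuOE and 354 in PBS, and was the lowest of the list in the PBS arm (-0.41) and the highest in the BuOE arm (0.77). Ptges, a prostaglandin E synthase, was the highest in the PBS arm (0.77), and Gstcd the lowest in the BuOE arm (-0.13).

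Genes of glutathione breakdown and precursors had medians of -0.03 in the PBS arm and -0.01 in the BuOE arm. Anpep, an aminopeptidase, stood at 81.6 CPM in PBS with radiation against 181 in PBS (-1.15), Glrx2 was the highest in that arm (0.33), and Dpep1 (0.58) and Glo1 (-0.44) were the extremes of the BuOE arm. In the list of other NADPH genes, Aldh1l1, a folate enzyme, had 6.20 CPM in PBS with radiation against 19.5 in PBS (-1.64), and 5.27 CPM in BuOE with radiation against 16.0 in BuOE (-1.59). Aldh1l2 (0.58) and Nadk2 (0.79) were the highest of that list in the PBS and the BuOE arm. In the other thioredoxin genes Txnip, the inhibitor of thioredoxin, stood at 976 CPM in BuOE with radiation, 295 in PBS with radiation, 499 in BuOE and 259 in PBS, a ratio of 0.97 in the BuOE arm and of 1.73 for BuOE with radiation against PBS with radiation. Txnrd2 was the lowest of the list in the PBS arm (-0.27), Sesn2 the highest (0.21), and Sesn3 the lowest in the BuOE arm (-0.43).

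A fit with additive radiation and BuOE terms holds both factors, has 1 residual degree of freedom and takes the difference between the arms as error. With edgeR's quasi-likelihood test and Benjamini-Hochberg adjustment over 14365 genes, no gene had an adjusted p below 0.05 for radiation (0% of all genes) or for BuOE (0%), members included. At an unadjusted p below 0.05 there were 1076 of the 14365 genes for radiation and 2954 for BuOE. Of the 38 members, 0 and 3 were among them (G6pdx, Pgd and Ephx1 for BuOE), smaller shares than of all genes. DESeq2's Wald test called 112 and 866 of the 14365 genes. Of the 38 members it called 0 and 1, again smaller shares, the 1 being Ephx1 for BuOE at an adjusted p of 0.0141.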

How the data were processed

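RNA of 4 cultures was sequenced in bulk. Reads per gene were deposited as raw counts. Per the submitters' processing notes, featureCounts and the build GRCm39 were used. Also listed there, with no role, are edgeR 4.2.2, Salmon 1.4.0, Trim Galore 0.6.4 and FastQC. Strand setting and treatment of multi-mapping reads are not given in the sources used here. Symbols came from a table of gene IDs and names, and exon lengths and transcripts from GENCODE M21 (GRCm38), joined by gene ID. Of 56748 IDs, 4675 had no symbol and stayed in the totals. Depth was 24996835 to 35915448 counts per library.

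Groups follow the treatment label. TMM normalization (edgeR 4.0.16 in R 4.3.3) set the scale, 14365 genes averaged at least 1 CPM and were kept, and log2 ratios used a prior count of 2. The limits were 1.5-fold and 2-fold. Intervals are exact binomial ones at 95%, given the scaled totals. The additive fit used edgeR and, as an alternative, DESeq2 1.42.0. Simulated counts with the same radiation effect in both arms were used to check the median ratio recovered against its known size. The additive fit was run on them with no limit set for its result, and a difference between the arms was not simulated. The members, lists and limits were chosen with earlier results of these data known. Named genes of the other lists are the extremes per list in the radiation comparisons and those differing 2-fold, among genes averaging at least 10 CPM. Akr1b7, Adh7 and Akr1c14, named for a 2-fold difference, averaged less.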

Additional observations from a re-analysis of the deposited data

Results flagged for a closer look

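For 6 genes the radiation ratio was below 0 in the PBS arm and above 0 in the BuOE arm, with both counting intervals clear of 0 and a difference of at least 2-fold between the arms. That is 15.8% of the 38 genes tested, against 1.09% of all genes. The difference was not tested, since each arm holds 1 library per condition. On the log2 scale it was 1.46 for Gsta4, 1.17 for Nqo1, 1.02 for Hmox1, 1.01 for Blvrb and 1.00 for Cbr3. For Gsta1 it was 2.79, an uncertain value, since the gene had at most 63 reads in a library, passed the filter only through PBS, where it was high, and shares 90.5% of its 50-base stretches with other genes.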

How the results depend on the processing

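Depth leaves a wide interval for Gsta1, Gsta2 and Mgst2, and 1 library per condition leaves the spread between cultures unknown. No paired analysis was possible because each condition has 1 library. The direction of the members' median was the same under every alternative for radiation in the PBS arm (-0.35 to -0.27), BuOE without radiation (-0.32 to -0.19), BuOE after radiation (0.24 to 0.43) and the difference between the arms (0.37 to 0.64). For radiation in the BuOE arm it lay between -0.0001147 with library size alone and 0.23 with upper-quartile factors, and its distance to the median of all genes was 0.14 to 0.15 under the 4 scalings. Library size alone moved the median of all genes to -0.14 there, to -0.10 for BuOE after radiation and to -0.15 for the difference between the arms, and upper-quartile factors moved the last to 0.11. The cause was not tested.

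With scaling by library size alone, 3 members were at least 1.5-fold higher with radiation in the BuOE arm, against 6, and 1 was higher with BuOE without radiation, against 0. Upper-quartile factors gave 12 higher with BuOE after radiation, against 7, with a median of 0.43. The shares of all genes past 1.5-fold under these scalings were not counted. At the 2-fold limit, fewer by construction, 4 were lower with radiation in the PBS arm, 1 higher in the BuOE arm, 3 lower with BuOE without radiation, 4 higher with BuOE after radiation and 9 higher in the difference between the arms (23.7%, against 2.7% of all genes). In the additive model DESeq2 called 112 of 14365 genes for radiation and 866 for BuOE, with 1 of 38 members among them. On genes averaging at least 10 CPM, edgeR called 400 of 9870 genes for BuOE and 0 of 33 members. The main fit called 0 in each case. The causes were not tested. PBS was the highest library for 19 or 20 of the 38 members under the 4 scalings, against 32.2% of all genes in the main run. Over all alternatives the count was 16 to 21, but some of these changed how many members were counted. Shares of all genes were not counted under the alternatives. The sign of 2 members in the PBS arm, 11 in the BuOE arm, 2 for BuOE without radiation and 2 for BuOE after radiation differed between scalings.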
